A study of Mus musculus with 9 samples.

Results

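A set of germline and placental genes that are known to be kept off by promoter methylation in body cells was looked up in the RNA-seq data of ciXEN cells and the fibroblasts they were made from. The set has 10 genes, Rhox5, Dazl, Tex19.1, Mael, Sycp3, Asz1, Taf7l, Slc25a31, Hormad1 and Tdrkh, which were chosen with earlier results of these data known. Of these, 4 (Rhox5, Tdrkh, Taf7l and Dazl) were among the 13787 genes of the table used here. The other 6 are not listed in it and were not analysed here. DNA methylation was not measured in these libraries, so the name of the set is background. Of the listed genes, Rhox5 alone was high in ciXEN cells. Taf7l and Dazl were listed at 0 in fibroblasts and were at or near 0 in most ciXEN libraries, and Tdrkh, which was present in fibroblasts, goes against the name.

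The groups are mouse embryonic fibroblasts (MEFs) and chemically induced extraembryonic endoderm-like (ciXEN) cells, all of the CF-1 strain, with 3 libraries in each of 3 groups. MEFs were at passage 3 in fibroblast medium with serum. The ciXEN lines 1-1, 2-1 and 3-3 each gave 1 library at passage 5 (p5) and 1 at passage 30 (p30), so the 6 ciXEN libraries hold 3 lines. Tests against MEFs took these 6 libraries as separate, and an SD over all 6 also holds differences between the passages. ciXEN cells were made from early-passage MEFs on Matrigel with bFGF and the small molecules VPA, CHIR99021, RepSox, Parnate, forskolin, AM580 and EPZ004777, and each line came from clones picked by hand. Their upkeep medium still holds these agents, several of which act on chromatin enzymes, while MEFs never met them, so medium and cell type cannot be told apart. Nothing in the labels says that the MEF libraries came from separate embryos, and p-values then measure only the spread between these libraries.

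Germline genes with CpG-rich promoters are methylated as the embryo implants and stay shut in body cells, where repressors such as the E2F6 and PRC1.6 complexes also hold them. Rhox5 is an X-linked homeobox gene, known from placenta, testis and ovary, and it is off in most other tissues. Dazl is an RNA-binding protein that germ cells need, Taf7l is a germ cell form of a general transcription factor subunit, and Tdrkh is a Tudor-domain protein of the piRNA pathway on the outer mitochondrial membrane. Tex19.1, Mael and Asz1 act in transposon control in germ cells, Sycp3 and Hormad1 are parts of the meiotic chromosome axis, and Slc25a31 is an ADP/ATP carrier of the testis.

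The start windows of the 4 listed genes are printed because their CpG content is the feature by which the set is usually defined. They come from RefSeq on GRCm38.p6 and run from 250 bases before to 50 bases after the start, 5′ to 3′ on the strand of the gene, with each CpG in capitals. The Rhox5 window lies at chrX:37754358-37754657 on the plus strand and holds 5 CpGs.

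Rhox5: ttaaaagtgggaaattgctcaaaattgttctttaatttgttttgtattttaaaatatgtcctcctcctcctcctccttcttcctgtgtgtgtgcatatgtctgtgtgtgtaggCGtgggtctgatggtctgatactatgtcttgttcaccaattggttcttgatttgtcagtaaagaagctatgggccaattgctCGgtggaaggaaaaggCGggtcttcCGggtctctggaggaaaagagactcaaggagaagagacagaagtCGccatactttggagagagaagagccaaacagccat

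The Dazl window lies at chr17:50293571-50293870 on the minus strand and holds 28 CpGs.

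Dazl: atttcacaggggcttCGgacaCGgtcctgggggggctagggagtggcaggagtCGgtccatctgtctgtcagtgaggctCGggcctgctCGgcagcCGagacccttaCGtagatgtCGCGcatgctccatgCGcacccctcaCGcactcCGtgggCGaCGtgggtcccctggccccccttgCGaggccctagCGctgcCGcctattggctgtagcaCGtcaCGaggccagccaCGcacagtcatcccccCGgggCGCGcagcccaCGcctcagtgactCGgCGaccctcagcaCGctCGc

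The Tdrkh window lies at chr3:94412994-94413293 on the plus strand and holds 25 CpGs.

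Tdrkh: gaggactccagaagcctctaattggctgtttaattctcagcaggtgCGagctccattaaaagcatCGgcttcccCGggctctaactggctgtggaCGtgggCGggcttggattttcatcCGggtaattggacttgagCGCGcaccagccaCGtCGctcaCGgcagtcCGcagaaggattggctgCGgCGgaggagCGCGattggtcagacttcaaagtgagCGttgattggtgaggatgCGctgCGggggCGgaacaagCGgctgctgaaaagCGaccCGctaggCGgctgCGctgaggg

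The Taf7l window lies at chrX:134476441-134476740 on the minus strand and holds 17 CpGs.

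Taf7l: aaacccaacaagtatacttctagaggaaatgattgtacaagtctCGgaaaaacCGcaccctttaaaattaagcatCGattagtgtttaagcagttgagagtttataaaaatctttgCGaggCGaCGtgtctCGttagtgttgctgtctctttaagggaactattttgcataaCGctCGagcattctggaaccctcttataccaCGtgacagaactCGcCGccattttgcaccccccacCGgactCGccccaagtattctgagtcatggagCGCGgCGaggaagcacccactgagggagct

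The ratio of observed to expected CpGs (the CpG count times the window length, divided by the counts of C and of G) was 0.363 for Rhox5, 0.795 for Dazl, 0.956 for Tdrkh and 1.03 for Taf7l. Its median over all 32851 windows of 27025 genes was 0.384. All 10 named genes have a window in the table, and 9 of them lay above that median, with Rhox5 the exception. So the only listed gene that was high in ciXEN cells has the lowest CpG ratio of the 10 at its RefSeq start. The 6 genes that were not analysed here had ratios between 0.575 for Tex19.1 and 0.826 for Slc25a31. The E2F6-type motif GCGGGAA, searched on both strands, was present in windows of 3 named genes (Hormad1, Slc25a31 and Sycp3) and in 4.6% of all windows. The E-box CACGTG, which reads the same on both strands, was present in 5 (Hormad1, Mael, Slc25a31, Sycp3 and Taf7l) and in 7.15% of all windows. Neither was found in the windows of Rhox5, Dazl and Tdrkh. The RefSeq window of Rhox5 ends 50.2 kb before the first base of the listed Rhox5 transcripts, so it is not the start that the values describe. The same holds for Taf7l, whose only listed transcript starts 1.4 kb downstream of its window.

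**Figure D1:**
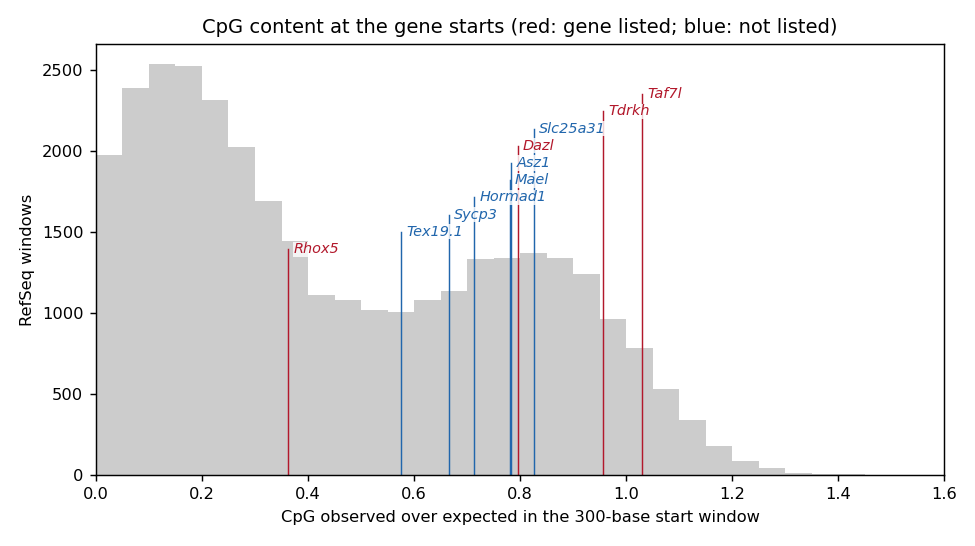
Histogram of the observed over expected CpG ratio (x axis, no unit) of 32851 RefSeq start windows (y axis, number of windows per bin), with a vertical line for each of the 10 named genes, red where listed and blue where not. Rhox5 sits at 0.363, below the median of all windows, and the other 9 lie between 0.575 and 1.03; line heights only separate the names.

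The values are FPKM, fragments scaled to transcript length and to library size, summed over the transcripts of a gene. Library sums ran from 315394.5 to 342201.3 FPKM, and 10593 to 11130 genes had at least 1 FPKM. Read counts were not used here, so the depth behind a value is unknown and a low value carries an unknown counting error. The summed level of 8 XEN markers was 94.99 to 137.5 FPKM in MEFs and 1060 to 1969 FPKM in ciXEN libraries, and that of 4 fibroblast markers was 1256 to 1602 FPKM in MEFs and 3.34 to 12.45 FPKM in ciXEN libraries, so the labels matched the cell types. MEF library 2 stood apart from MEF libraries 1 and 3 in genes that are high in ciXEN cells, as given below for Rhox5.

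Rhox5 (chrX:37804842-37808876 in GENCODE M21 on GRCm38, plus strand) was the one named gene with a high level. In MEFs its level was 5.66 FPKM in library 1, 0.721 FPKM in library 2 and 4.74 FPKM in library 3. In ciXEN cells at p5 it was 692 FPKM in line 1-1, 623 FPKM in line 2-1 and 1004 FPKM in line 3-3. At p30 it was 980 FPKM in line 1-1, 837 FPKM in line 2-1 and 955 FPKM in line 3-3. The MEF and ciXEN libraries did not overlap, as was the case for 61.3% of all 12443 genes tested, and the lowest ciXEN library was 110 times the highest MEF library. The ciXEN mean was 229 times the MEF mean. On the log2(FPKM + 1) scale the difference was 7.69 (SE 0.38), which is a description and not a test, since the gene was chosen with this contrast known. In bulk libraries such as these, more cells with a transcript and more of it per cell cannot be told apart.

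Among all listed genes, Rhox5 ranked between 14 and 43 by FPKM in the 6 ciXEN libraries and between 7512 and 11350 in the 3 MEF libraries. It was second among the 492 listed X-linked genes in every ciXEN library. The only X-linked gene above it was S100g, which codes for the calcium-binding protein calbindin-D9k, with a ciXEN mean of 1644 FPKM against 848 FPKM for Rhox5. The next genes were Rps4x, a ribosomal protein, at 484 FPKM and Rbbp7, a histone-binding protein, at 448 FPKM.

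The order of the group levels of Rhox5 was p30, p5 and MEFs, at 924 ± 76.2, 773 ± 203 and 3.71 ± 2.62 FPKM (mean ± SD, n = 3 each). The p30 and p5 groups, the neighbours in that order, overlapped (28.8% of all genes tested had no overlap between the passages). Their difference did not pass the test. The p30 mean was 1.20 times the p5 mean, and the difference on the log2 scale was 0.29 (SE 0.44, 95% interval −0.70 to 1.27, adjusted p = 0.75 by limma). This SE and interval rest on a spread shared by all 3 groups, MEFs included. Without MEF library 2 the SE was 0.17. With the ciXEN libraries alone it was 0.17 too, and the adjusted p was 0.37 by limma. Line 1-1 and line 2-1 were higher at p30 than at p5, and line 3-3 was slightly lower. Across the 6 ciXEN libraries the highest value was 1.61 times the lowest. With the line as a block and the ciXEN libraries alone, the adjusted p was 0.28. With the replicate number as a block over all 9 libraries, which ties MEFs to lines by number alone, it was 0.68.

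The level in MEFs differed between libraries. The Rhox5 value was 0.667% of the ciXEN mean in MEF library 1, 0.085% in library 2 and 0.559% in library 3. For comparison, the other 28 genes that reached 100 FPKM in ciXEN cells, and there 50 times or more their lowest MEF value, had medians of 0.772%, 0.0851% and 0.801% in the same libraries. Rhox5 therefore sat close to the median of these genes in each MEF library, and whether cells or RNA of the other type lay behind the MEF values was not tested. With MEF library 2 alone standing for MEFs, an alternative added after seeing the data, the log2 difference of Rhox5 was 8.92.

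**Figure D2:**
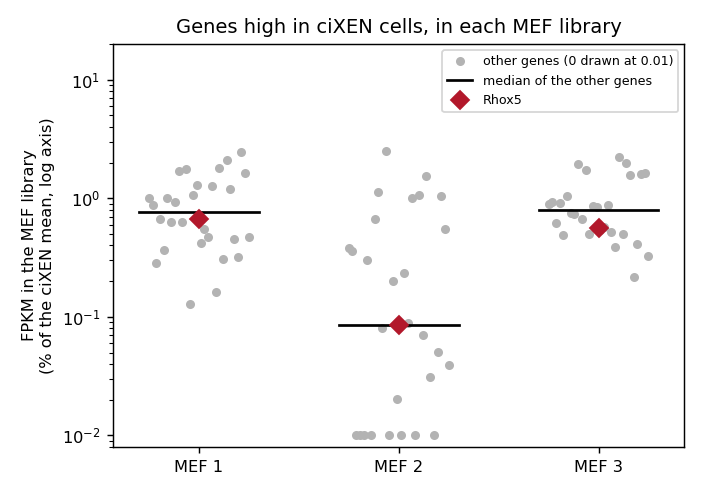
Level of genes that are high in ciXEN cells in each of the 3 MEF libraries (x axis), as a percent of their ciXEN mean (y axis, log axis; values of 0 drawn at 0.01). Grey points are 28 genes, black lines their medians (0.772%, 0.0851% and 0.801%), and red diamonds Rhox5, which lies near the median in each library.

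For Rhox5, 2 transcripts are listed, and they differ little. Rhox5-202 starts 9 bases before and ends 112 bases after Rhox5-201. Rhox5-201 held 87.2% to 94.7% of the FPKM of the gene in ciXEN libraries and 93.5% to 100% in MEFs. Its level was 590 to 911 FPKM in ciXEN libraries, and that of Rhox5-202 was 32.8 to 125.7 FPKM. Rhox5 is known to have separate distal and proximal promoters, used in different tissues, and since both listed transcripts begin within the same few bases the values cannot tell which was in use.

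**Figure D3:**
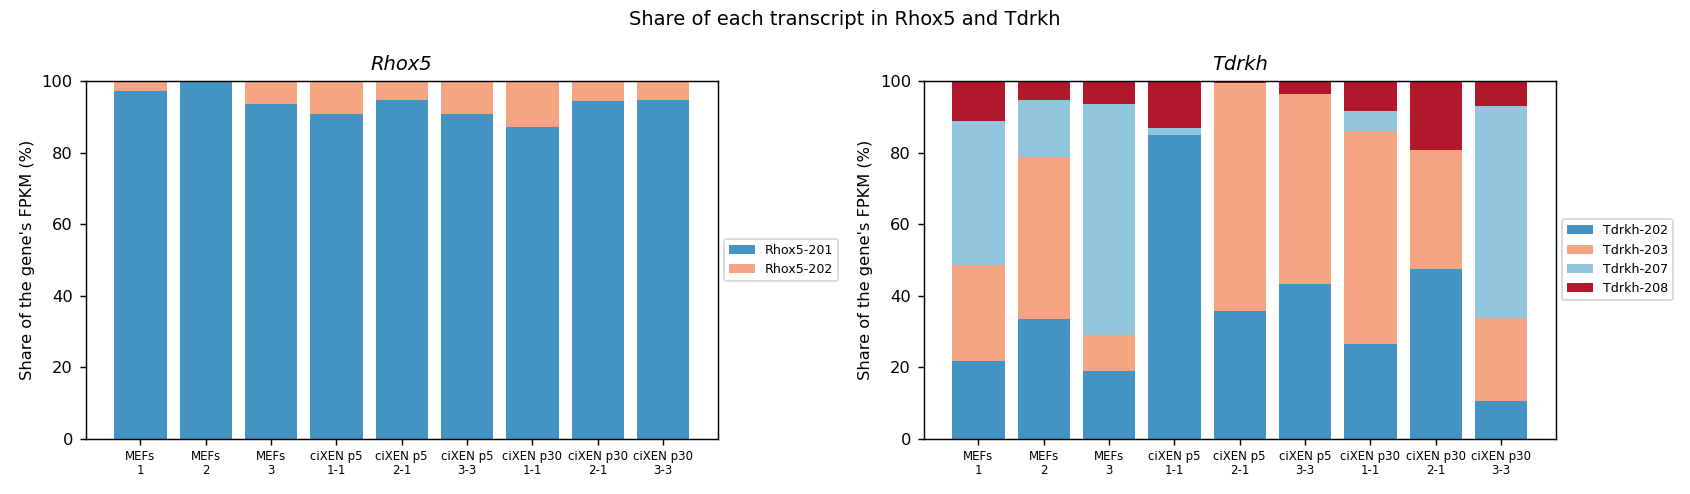
Share of each listed transcript (y axis, percent of the FPKM of the gene) in each of the 9 libraries (x axis) for Rhox5 (left) and Tdrkh (right). Rhox5-201 holds at least 87.2% in every library, while the largest transcript of Tdrkh changes from library to library.

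Tdrkh (chr3:94413273-94434668, plus strand) was low in every group. It read 4.00, 6.70 and 4.24 FPKM in MEF libraries 1 to 3. At p5 it was 1.21 FPKM in line 1-1, 1.98 FPKM in line 2-1 and 3.35 FPKM in line 3-3. At p30 it was 9.83 FPKM in line 1-1, 2.12 FPKM in line 2-1 and 4.61 FPKM in line 3-3. The MEF and ciXEN libraries overlapped, and the described log2 difference was −0.48 (SE 0.37), with the 2 p30 libraries of lines 1-1 and 3-3 inside or above the MEF range. Every p5 library lay under the lowest MEF library, which is a description, and the share of all genes without such overlap was not computed.

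All 3 lines had more Tdrkh at p30 than at p5, and by far the widest gap was in line 1-1. The log2 difference was 0.91 (SE 0.43, 95% interval −0.05 to 1.87, adjusted p = 0.23 by limma), which did not pass the test. With the line as a block and the ciXEN libraries alone, the adjusted p was 0.32, and with the replicate number as a block over all 9 libraries it was 0.29. Of the 2 named genes that could be tested between passages, Rhox5 and Tdrkh, 0 were called at an adjusted p of 0.05 and 0 at an unadjusted p under 0.05, where 8.69% and 25.0% of all genes tested were. Without single libraries the difference of Tdrkh ranged from 0.45 to 1.35.

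The 4 listed transcripts of Tdrkh shared the gene unevenly. Tdrkh-202 held between 10.6% (line 3-3 at p30) and 84.9% (line 1-1 at p5). Tdrkh-203 held from 0% in line 1-1 at p5 to 63.6% in line 2-1 at p5, and Tdrkh-207 from 0% in several ciXEN libraries to 64.8% in MEF library 3. No transcript was the largest in all libraries of a group. Oaz3, an antizyme gene of the testis, lies on the opposite strand within the Tdrkh locus and is not listed in the table used here. The sources used here do not say whether strand was used for the values, so reads of an antisense gene could not be told apart from those of Tdrkh.

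Taf7l (chrX:134460118-134476490, minus strand) was listed at 0 in all 3 MEF libraries. At p5 it was 1.76 FPKM in line 1-1, listed at 0 in line 2-1 and 1.84 FPKM in line 3-3. At p30 it was listed at 0 in all 3 lines. So 2 of 9 libraries held a value above 0, all of it in transcript Taf7l-202. Its mean over all libraries was 0.4002 FPKM, under the minimum of 0.5 FPKM for a test.

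Dazl (chr17:50279395-50293636, minus strand) was at or near 0 throughout. It was listed at 0 in all MEF libraries, at 0.0346 FPKM in line 1-1 and 0.0745 FPKM in line 3-3 at p5, at 0.0303 FPKM in line 3-3 at p30, and at 0 in the other ciXEN libraries. Its mean over all libraries was 0.0155 FPKM, and it was not tested. Line 2-1 held neither Taf7l nor Dazl above 0 at either passage, and line 3-3 was the only one with Dazl at both.

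**Figure D4:**
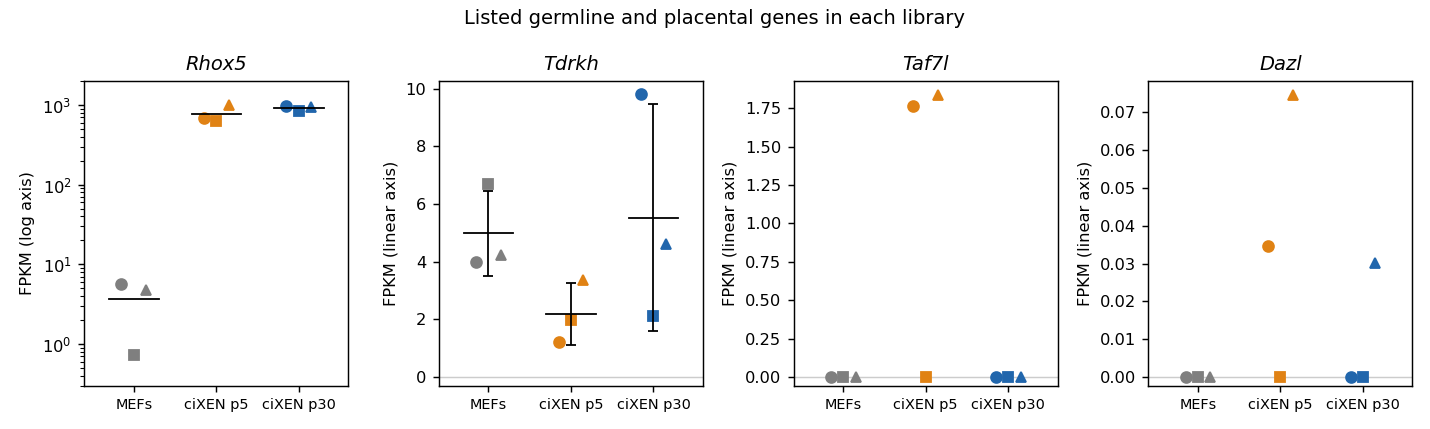
FPKM (y axis; log axis for Rhox5, linear for the others) of the 4 listed genes in MEFs, ciXEN p5 and ciXEN p30 (x axis); circles, squares and triangles are MEF libraries 1, 2 and 3 or lines 1-1, 2-1 and 3-3. Lines are means where no library is at 0, and bars (Tdrkh) are SD, n = 3. Rhox5 separates MEFs from all ciXEN libraries, from at most 5.66 FPKM to at least 623 FPKM, and the other genes do not.

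Of 10 germ cell markers 4 are listed, and they summed to 0.754 to 1.47 FPKM in MEFs, 82.5 to 98.4 FPKM at p5 and 62.3 to 104 FPKM at p30. Kit, which other cell types also express, made up most of the ciXEN sums, and without it they were 0.719 to 1.24 FPKM in MEFs, 0.560 to 1.54 FPKM at p5 and 0.159 to 0.304 FPKM at p30. Ddx4, the RNA helicase that marks germ cells, was 0.209 to 1.24 FPKM in MEFs and at most 0.180 FPKM in ciXEN libraries. Prdm14, a regulator of primordial germ cells and pluripotent cells, was listed at 0 in MEFs and was at most 1.48 FPKM at p5 and 0.164 FPKM at p30. Of 10 trophoblast markers 6 are listed, and they summed to 1.71 to 2.41 FPKM in MEFs, 22.0 to 25.6 FPKM at p5 and 10.5 to 16.0 FPKM at p30. Within them, Hand1 and Prl3d1, a defining hormone gene of trophoblast giant cells, were listed at 0 in every ciXEN library, while Eomes was 6.77 to 14.9 FPKM and Cdx2 2.32 to 3.85 FPKM. The part of trophoblast cells in the levels of placental genes was not tested.

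Rhox5 lies in a cluster of homeobox genes on the X chromosome, and its nearest listed relative was likewise higher in ciXEN cells, at a far lower level. Of 31 other Rhox genes, 3 are listed and 1, Rhox6, passed the minimum of 0.5 FPKM, which it did through its ciXEN libraries alone, so its values are a description. Rhox6, a placental and germ cell homeobox gene that lies 18.0 kb from Rhox5, was listed at 0 in all MEF libraries, was 14.2, 3.86 and 10.7 FPKM in lines 1-1, 2-1 and 3-3 at p5, and was 1.66, 4.59 and 7.99 FPKM at p30. Rhox9 was listed at 0 in MEFs and reached 0.561 FPKM. Rhox4b was at most 0.333 FPKM, and since it has near-identical copies its value is uncertain. Rhox5 thus stood far above the other listed Rhox genes within the same libraries.

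Of the nearest listed genes on either side of the other named genes, those with the largest change were higher in ciXEN cells as well. Mrpl9, a mitochondrial ribosomal protein 8.6 kb from Tdrkh, was higher in ciXEN cells by 0.74 on the log2 scale (SE 0.07, adjusted p = 1.3e-05), beside a difference of −0.48 (SE 0.37) for Tdrkh. Timm8a1, a mitochondrial import protein 60.8 kb from Taf7l, was higher by 1.07 (SE 0.10, adjusted p = 1.2e-05). Plcl2, a phospholipase C-like protein 215.8 kb from Dazl, was higher by 2.21 (SE 0.15, adjusted p = 1.1e-06). Dazl stayed at or near 0 beside it. On the other side, Rftn1, a lipid raft protein 88.7 kb from Dazl, did not pass the test (0.08, SE 0.17, adjusted p = 0.69). For Drp2, a dystrophin relative 3.5 kb from Taf7l, the difference was 0.68 (SE 0.23). That is a description, since the MEF mean of Drp2 was under 0.5 FPKM.

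The genes related to the set were taken from lists of germ granule, meiosis, germ cell regulator, testis isoform, nucleotide carrier, Rhox and placental genes. Of 189 genes in these lists 71 are listed and 58 were tested. In ciXEN cells against MEFs 37 rose (63.8%) and 8 fell, where 42.4% of all genes tested rose and 27.6% fell (70.1% in all). Their median log2 difference was 0.79, against 0.20 over all genes tested. Of the 37, 14 had a mean under 0.5 FPKM in MEFs, so that they passed the minimum through the ciXEN libraries, which set their direction. With no minimum, 38 of 69 rose (55.1%) and 12 fell (17.4%), where 5467 of 13674 genes rose and 3826 fell. Several are listed at 0 in MEFs, and their fitted differences depend on the pseudocount of 1. The counts of the single lists below carry the same limit. In ciXEN cells against MEFs, risers named below whose MEF mean was under 0.5 FPKM are given as a description.

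The germline lists and the placental list had different medians, and both hold genes that passed the minimum through the ciXEN libraries. Of 31 tested germline genes 17 rose and 5 fell (54.8% higher, median 0.70), and of 20 tested placental genes 16 rose and 1 fell (80.0% higher, median 1.96). Among the placental risers, Cdx2, Eomes, Plac1, Esx1, Esrrb, Sox3, Xlr3a and Phlda2 had MEF means under 0.5 FPKM. Among the germline risers, Tdrd5, Zbtb16, Ddx25, Zfp42 and Kit did. The ciXEN libraries set the direction of all of these. Over all genes tested, 42.4% rose and 27.6% fell. Among the 16, Gata2 and Gata3 passed against MEFs at p5 and not at p30. For Plac1 and Xlr3a, whose MEF means were under 0.5 FPKM, the log2 differences are a description. They were 0.17 (SE 0.18) and 1.41 (SE 0.64) at p5, and 0.85 (SE 0.18) and 1.66 (SE 0.64) at p30. Whether the shares of the germline and placental lists differ was not tested.

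Among 6 tested germ granule genes, the relatives of Tdrkh, 3 rose and 2 fell. Tdrd5, a Tudor-domain protein of spermatogenic granules, was 0.0135 ± 0.0123 FPKM in MEFs (n = 3) and 2.24 ± 0.713 FPKM in ciXEN cells. The ciXEN values here and in the next paragraphs are over 6 libraries of 3 lines (n = 6, mean ± SD). The log2 difference of Tdrd5 was 1.64 (SE 0.21), which is a description. Tdrd7, another Tudor-domain protein, fell from 7.23 ± 1.51 to 3.28 ± 1.67 FPKM (log2 difference −1.02, SE 0.16, adjusted p = 0.00038). Snd1, a nuclease with a Tudor domain that most cells use, rose by 0.43 (SE 0.08, adjusted p = 0.0011). The RNA helicase Mov10 (0.34, adjusted p = 0.033) and Tdrd3 (−0.31, adjusted p = 0.047) were close to the threshold. Leaving out single libraries ended the call of Mov10 in 6 of 9 fits and that of Tdrd3 in 8 of 9, among them each fit without a MEF library. Mov10 also lost its call under each of 3 other scalings of the libraries (adjusted p 0.072 to 0.088), and with the replicate block the adjusted p was 0.053 for Mov10 and 0.052 for Tdrd3.

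Among 10 tested meiosis genes, the relatives of Sycp3 and Hormad1, 6 rose (60.0%) and 0 fell by limma (0 fell at an unadjusted p under 0.05). Of all genes tested, 42.4% rose and 27.6% fell. Psmc3ip and Mnd1, partners in strand exchange during meiotic recombination, went from 5.78 ± 1.66 to 20.3 ± 2.25 FPKM and from 20.2 ± 2.07 to 61.0 ± 10.5 FPKM, with log2 differences of 1.67 (SE 0.14, adjusted p = 4.9e-06) and 1.53 (SE 0.14, adjusted p = 7.9e-06). Syce2, of the central element of the synaptonemal complex, rose by 1.37 (SE 0.16, adjusted p = 5e-05). Prdm9, the histone methyltransferase that places recombination sites, rose from 1.43 ± 0.195 to 3.20 ± 0.485 FPKM (log2 difference 0.79, SE 0.13, adjusted p = 0.00046). Rec8, the meiotic cohesin subunit, was listed at 0 in MEFs and reached 19.24 FPKM in line 1-1 at p5, with at most 0.622 FPKM in any other ciXEN library, and it did not pass the test (adjusted p = 0.27).

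Among 11 tested germ cell regulators 5 rose (45.5%) and 3 fell, a share called of 72.7%, close to that of all genes tested (42.4% rose, 70.1% called). Kit, the stem cell factor receptor of germ cells and several other cell types, had the widest gap, with 0.0345 to 0.376 FPKM in MEFs and 62.1 to 104 FPKM in ciXEN libraries (log2 difference 6.23, SE 0.17). The log2 differences of Zfp42 (Rex1), known from pluripotent and germ cells, and Zbtb16, a regulator of spermatogonial stem cells, were 2.40 (SE 0.28) and 1.68 (SE 0.11). For Kit, Zfp42 and Zbtb16 these values are a description, as their MEF means were under 0.5 FPKM. Taf4b, a gonad form of a TFIID subunit, rose by 1.24 (SE 0.14, adjusted p = 3.8e-05). Taf9b, like Taf7l a variant TFIID subunit, fell by 1.08 (SE 0.15, adjusted p = 0.00015). The RNA-binding gene Celf4 fell by 1.20 (SE 0.18, adjusted p = 0.00022).

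Among 4 tested testis isoforms 3 rose (75.0%), where 42.4% of all genes tested rose and 27.6% fell. They were the glucose transporter Slc2a3 (2.04, SE 0.29), the testis cytochrome oxidase subunit Cox6b2 (1.65, SE 0.12) and the chaperone Hspa2 (0.70, SE 0.16), with adjusted p of 0.00016, 1.9e-06 and 0.0034. Of the 6 nucleotide carriers related to Slc25a31 3 rose and 2 fell. The ATP-magnesium/phosphate carriers moved in opposite directions, Slc25a24 from 42.4 ± 3.98 to 8.04 ± 2.91 FPKM (log2 difference −2.32, SE 0.16, adjusted p = 1.3e-06) and Slc25a23 from 3.54 ± 1.15 to 16.6 ± 5.25 FPKM (1.92, SE 0.27, adjusted p = 0.00015). Another carrier of this kind, Slc25a25, fell by 0.66 (SE 0.19, adjusted p = 0.013), and Slc25a5, the ADP/ATP carrier of dividing cells, rose by 0.40 (SE 0.12, adjusted p = 0.013). The call of Slc25a25 ended without MEF library 1 (adjusted p = 0.053), and that of Slc25a5 without MEF library 3 (adjusted p = 0.063).

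The placental genes held the widest changes apart from Rhox5. Krt8 and Krt18, keratins of simple epithelia, rose by 7.13 (SE 0.50, adjusted p = 1.4e-06) and 6.90 (SE 0.32, adjusted p = 9.1e-08). Peg10, an imprinted gene derived from a retrotransposon that the placenta needs, rose by 5.82 (SE 0.17, adjusted p = 5.5e-09). Esx1, another X-linked placental homeobox gene, was 0 to 0.384 FPKM in MEFs and 33.4 to 129.9 FPKM in ciXEN libraries (log2 difference 5.45, SE 0.40, a description). The single placental gene that fell was Plac9a, from 4.01 to 6.70 FPKM in MEFs to at most 0.180 FPKM in ciXEN libraries (−2.60, SE 0.15). It passed the minimum of 0.5 FPKM through MEFs alone, so its values are a description too.

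Genes that write, keep, remove or read DNA methylation were compared because they act on promoters of this kind, and only their RNA was measured. Of 18 tested, 9 rose and 0 fell by limma, and of 24 tested germline gene repressors 10 rose and 0 fell (0 fell at an unadjusted p under 0.05 too), which is 45.2% of the 42 together, close to the 42.4% of all genes tested that rose and below the 70.1% called in either direction. Their median log2 difference was 0.35. Dnmt3b, a de novo methyltransferase, went from 1.03 ± 0.235 to 23.7 ± 9.66 FPKM (3.52, SE 0.18, adjusted p = 1.8e-07). Tet1, which oxidises methylated cytosine, rose from 0.949 ± 0.314 to 10.2 ± 2.77 FPKM (adjusted p = 2e-06). The repair glycosylase Mbd4 rose by 1.51 (SE 0.16, adjusted p = 2.9e-05) and Hells, a remodeller needed for methylation, by 1.22 (SE 0.10, adjusted p = 3.2e-06). Among the repressors, Pcgf6 of the PRC1.6 complex rose by 1.39 (SE 0.14, adjusted p = 2.1e-05), Rybp by 1.31 (SE 0.09, adjusted p = 9.7e-07) and Trim28 by 0.81 (SE 0.08, adjusted p = 1.1e-05). Dot1l, which was placed in the same list, rose by 0.74 (SE 0.11, adjusted p = 0.0002). The paper describes EPZ004777, an agent of the ciXEN medium, as an inhibitor of DOT1L. E2f6, Mga and Max did not move as one: Mga rose by 0.73 (SE 0.18, adjusted p = 0.0057), and E2f6 (0.02, adjusted p = 0.97) and Max (−0.10, adjusted p = 0.55) did not pass the test.

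**Figure D5:**
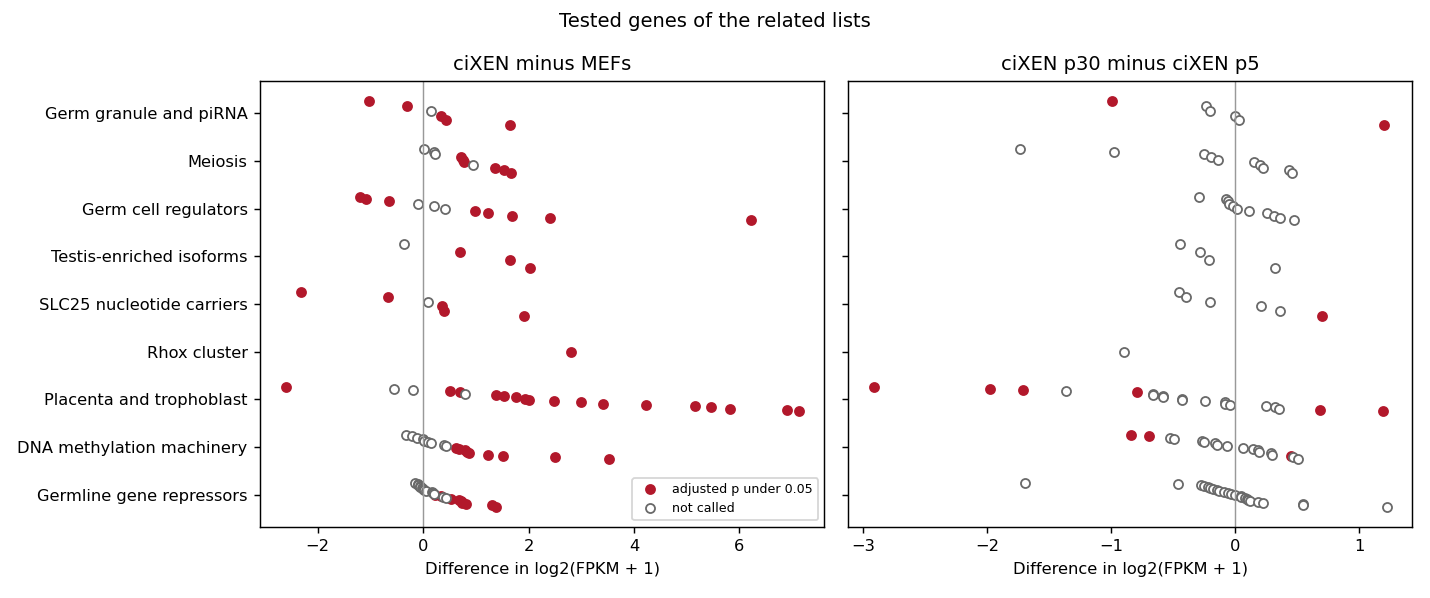
Difference in log2(FPKM + 1) (x axis) of each tested gene of the related lists (y axis), for ciXEN cells minus MEFs (left) and p30 minus p5 (right); filled red points have an adjusted p under 0.05 by limma, open points do not. The placental list reaches 7.13 on the left, and on the right 12 genes of all lists are called.

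Between the passages, 9 of the 58 related genes and 3 of the 42 methylation and repressor genes were called, where 8.69% of all genes tested were (3.08% higher at p30 and 5.61% lower). Those of the 12 that are named were chosen for having passed. The trophoblast regulators Gata2 and Gata3 fell from 13.6 to 33.7 FPKM and 5.86 to 9.78 FPKM at p5 to 0.944 to 3.88 FPKM and 0.875 to 1.53 FPKM at p30, with log2 differences of −2.91 (SE 0.39, adjusted p = 0.0039) and −1.98 (SE 0.19, adjusted p = 0.0012). In MEFs, Gata2 was 1.62 to 3.22 FPKM and Gata3 1.54 to 1.82 FPKM. Neither passed the test of p30 against MEFs (adjusted p = 0.87 and 0.21 by limma). Phlda2, an imprinted gene that limits placental growth, rose by 1.19 (SE 0.22, adjusted p = 0.013). These 3 calls were kept whichever single library was left out, and the other 9 were lost in at least 1 such fit. With the line as a block and the ciXEN libraries alone, 1 of the 12, Gata3, was still called (adjusted p = 0.037), and 169 of 11719 genes were called in all. That fit called 2 of 56 related genes, counted over all those it tested and not only over the 12. Rhox5 was not among the genes that differed between passages.

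The genes whose levels followed the named genes most closely depended on which of them was taken. Over the 9 libraries, the mean of the 4 standardised profiles was most like that of Ppp2r3d, with a Pearson r of 0.957 among 10062 genes compared, followed by Elavl3 (0.944), Pak6 (0.938), Ahsa2 (0.932) and Hoxa7 (0.928). For Rhox5 alone, a profile chosen after seeing the data, the nearest were Cited1 (0.999), Txndc12 (0.997), Epas1 (0.997), Bex4 (0.996) and L1td1 (0.996). With 2 separated groups of libraries such values mostly restate that a gene is high in ciXEN cells and low in MEFs, and they are given as a description.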

How the data were processed

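The authors sequenced rRNA-depleted, strand-marked libraries and deposited FPKM values for 29599 transcripts in 9 libraries. Per the submitters' processing notes the tools were STAR 2.5.2b, HISAT2 2.0.5, StringTie and cutadapt, with the human build hg19, although the transcript IDs are those of mouse. The aligner and build behind the values are not given in the sources used here. Transcripts were matched by ID to GENCODE M21 (29521 matched, and the 78 others hold 0.158% of the FPKM) and summed per gene. The 12443 genes whose mean reached 0.5 FPKM were tested on log2(FPKM + 1) with limma 3.58.1 in R 4.3.3 (1 fit of 3 groups, eBayes with trend, 6 residual and 3.16 prior degrees of freedom, two-sided, Benjamini-Hochberg over all genes tested, threshold 0.05). A fold change on this scale understates the change of low genes. The code was tested on simulated data.

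The named genes and the lists were chosen with earlier results of these data known, so ciXEN cells against MEFs is a description for the named genes. Within each list the genes given are the called ones with the largest change, up to 4, and up to 2 in the other direction, and genes called between passages were added after their values were seen; 1 of them is not reported here. Of the nearest listed gene on either side of each named gene, the 4 with the largest change were named (Rftn1 and Drp2 were added later), as were the 5 most alike genes. Libraries of the same line at p5 and p30 are paired by their labels. Their deviations from the group means correlated at −0.0054, 0.0142 and 0.0714. The MEF libraries have no such link to a line. The alternatives were other pseudocounts, filters, scalings, trend, sample sets, the replicate block (the line; with MEFs in the fit, the library number), the highest transcript of the named genes and leaving out each library. Start windows and symbols came from RefSeq on GRCm38.p6. No protein sequences were used.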

Additional observations from a re-analysis of the deposited data

Results flagged for a closer look

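The change against MEFs differed between the passages for 12 genes of the lists, of which 11 are given, by the test of p30 against p5 itself (differences in log2(FPKM + 1), limma, adjusted over all genes tested). Lower at p30 were Gata2 (−2.91, adjusted p = 0.0039), Gata3 (−1.98, adjusted p = 0.0012), the keratin Krt7 (−1.71, adjusted p = 0.047), Tdrd7 (−0.997, adjusted p = 0.015), Dnmt3b (−0.84, adjusted p = 0.039) and Tet2 (−0.69, adjusted p = 0.011), which oxidises methylated cytosine. Higher at p30 were the piRNA pathway gene Tex15 (1.20, adjusted p = 0.033), Phlda2 (1.19, adjusted p = 0.013), Slc25a24 (0.70, adjusted p = 0.049), Plac1 (0.68, adjusted p = 0.046), an X-linked placental gene, and Uhrf1 (0.45, adjusted p = 0.048), which keeps methylation through replication. Leaving out single libraries ended the calls of Uhrf1, Krt7, Plac1 and Slc25a24 in 8 of 9 fits each, of Dnmt3b in 7, of Tex15 in 6, of Tdrd7 in 2 and of Tet2 in 1.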

How the results depend on the processing

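Rhox5 and Tdrkh stayed uncalled between passages under every alternative run, including the replicate block (0 of 2 called, with and without MEFs) and each library left out (0 to 0). The described log2 difference of Rhox5 against MEFs ran from 7.08 to 8.06 without single libraries and was 8.92 with MEF library 2 alone for MEFs; that of Tdrkh ran from −0.71 to −0.26 without single libraries and was 0.02 with its highest transcript only. Of the related genes, 34 to 38 rose and 6 to 8 fell without single libraries, and 29 rose and 5 fell with MEF library 2 alone. Of the methylation and repressor genes, 19 to 20 rose and 0 to 1 fell without single libraries, and 1 fell after quantile normalisation (Kdm5c, −0.27, adjusted p = 0.036), and the cause was not tested. Over 49 single-gene results and 994 alternative fits, 881 kept direction and call, 113 kept direction but lost the call, and 0 reversed. These leave out the described differences of Rhox5 and Tdrkh against MEFs, of which that of Tdrkh changed sign as given above. Between passages the replicate block lowered the calls over all genes from 1081 to 813 with all 9 libraries and to 169 with the ciXEN libraries alone, and those of the related genes from 9 to 8 and 2, and of the methylation and repressor genes from 3 to 1 and 0. Depth is unknown, so values of Taf7l and Dazl near 0 cannot be weighed against counting error.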
